A study of Mus musculus with 5 samples.

Results

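Inner medullary collecting duct cells were taken from the inner medulla library by their counts of a few genes. Members were thus chosen by their own counts, as barcodes with at least 200 detected genes, at least 5 UMIs of Aqp2 that made up at least 1.5% of their UMIs, at most 1 UMI of Umod plus Slc12a1, and 0 UMIs of Bst1. A UMI (unique molecular identifier) marks one captured mRNA molecule. The rule found 352 members among 898 inner medulla cells, or 39.2% (36.0 to 42.5), and among 12121 cells of the whole series. The remaining 546 inner medulla cells are called the other inner medulla cells.

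Wild-type C56BL/6N mice, as the labels spell the strain, gave kidneys for all 5 Drop-seq libraries, with no treatment named: inner medulla, outer medulla and cortex with 1 microdissected library each, and whole kidney with 2 libraries. Organs or dissected parts were digested with a protease in the cold, and the cells were fixed in methanol and frozen before capture in droplets. The labels give neither the age nor the number of animals, nor whether regions came from the same animals. Cells of 1 library are not replicates, so no p-value is given. Ranges in parentheses are exact 95% intervals, which cover counting error only.

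The inner medullary collecting duct is the last stretch of the nephron's drainage system, where the final water and urea content of urine is set. Vasopressin acts through its receptor Avpr2 and cyclic AMP to bring the water channel Aqp2 to the apical membrane, while Aqp3 and Aqp4 let water leave across the basolateral side. In its deeper part, urea passes through transporters encoded by Slc14a2 into an interstitium whose high osmolality the cells withstand with organic osmolytes and heat shock proteins. Hsd11b2 inactivates glucocorticoids, which leaves the mineralocorticoid receptor of aldosterone-responsive collecting duct cells to aldosterone.

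The promoters of 3 genes on which the results below turn are shown first: Aqp2, which chose the cells, and Fxyd4 and S100a6, which separated members from each other in opposite directions. Each run holds 250 bases before and 50 after the RefSeq start, on build GRCm38.p6 and on the strand of the gene. Capitals mark 3 motifs on either strand. The first is the GATA factor motif AGATAA. The second is AGGAAG, to which ETS factors bind. The cyclic AMP response element has the core TGACG, which is the third. TGGAAA, the core of the tonicity-responsive element bound by Nfat5, was searched in the same way. Of 32851 mouse promoters of this length, 11.2% held the GATA motif, 35.4% the ETS motif, 20.8% the cyclic AMP response element core and 21.4% the tonicity-responsive element core, and no matches overlapped each other in the 3 runs.
Aqp2, chr15:99578806-99579105, plus strand: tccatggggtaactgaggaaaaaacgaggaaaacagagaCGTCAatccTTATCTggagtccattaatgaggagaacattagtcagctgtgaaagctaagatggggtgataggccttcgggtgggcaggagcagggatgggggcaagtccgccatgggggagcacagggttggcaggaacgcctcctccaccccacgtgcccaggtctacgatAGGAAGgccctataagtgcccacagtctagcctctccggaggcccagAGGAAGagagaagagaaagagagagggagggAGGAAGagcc
Fxyd4, chr6:117937286-117937585, minus strand: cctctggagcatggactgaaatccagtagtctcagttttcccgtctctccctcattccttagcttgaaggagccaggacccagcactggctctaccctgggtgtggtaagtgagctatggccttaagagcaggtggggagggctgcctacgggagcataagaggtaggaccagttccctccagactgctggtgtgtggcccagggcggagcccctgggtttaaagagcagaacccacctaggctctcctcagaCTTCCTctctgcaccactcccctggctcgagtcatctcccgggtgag
S100a6, chr3:90612644-90612943, plus strand: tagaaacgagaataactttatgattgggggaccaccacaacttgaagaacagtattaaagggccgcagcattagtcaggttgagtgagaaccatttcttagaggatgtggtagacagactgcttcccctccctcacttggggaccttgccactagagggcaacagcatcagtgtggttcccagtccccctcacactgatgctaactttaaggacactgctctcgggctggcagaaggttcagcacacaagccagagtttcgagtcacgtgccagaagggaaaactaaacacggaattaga

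In the Aqp2 window, the cyclic AMP response element core began 211 bases and the GATA motif 202 bases before the start, both on the opposite strand. The same window held 3 AGGAAG runs, 1 of them upstream of the start at 38 bases. Fxyd4 held 1 AGGAAG match, on the opposite strand and 4 bases into the transcript. None of the 4 motifs was found in the S100a6 window. A match is a stretch of letters and shows no binding.

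The inner medulla library held 869732 UMIs in 4035 barcodes, and its cells had a median of 440 UMIs. In members the UMIs per cell ran from 231 over a median of 512 to 2864, and together they held 221277 UMIs. The other inner medulla cells had a median of 389 UMIs and held 299386. The tables listed 0 mitochondrially encoded genes, a usual gauge of RNA quality. Any pair of libraries shared at most 1 cell barcode, and 1 member had a barcode also found in a cell of another library. No doublet caller was run here; leaving out the 5% of cells with the most UMIs was tried in its place.

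Aqp2, as the rule required, was present in every member, with 5 UMIs in the lowest, 14 in the median and 77 in the highest. It made up 1.5%, 2.51% and 7.93% of a cell's UMIs at these points. Summed over members it reached 27337 CPM (UMIs of a gene per 1000000 UMIs), against 2662 CPM in the other inner medulla cells. Just inside the threshold, 85 members with Aqp2 at 1.5 to 2% of their UMIs had 4163 CPM of Aqp4 and 4305 CPM of Plet1. Just outside it, 39 cells with at least 5 Aqp2 UMIs at 1 to 1.5% had 4045 CPM of Aqp4 and 3907 CPM of Plet1. Slc14a2 had 478 CPM in the 85 members inside the threshold and 864 CPM in the 39 cells outside it. The other inner medulla cells include the second set.

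Of the 3 genes besides Aqp2 that define the label, 103 members had all of Aqp4, Plet1 and S100a6, 143 had 2 of them, 78 had 1 and 28 (7.95%) had none. The median depth of these sets was 800, 524, 449 and 323 UMIs. Plet1, a surface protein of epithelial progenitors, had 3796 CPM in members and 1316 CPM in the other inner medulla cells, a ratio of 2.88 (2.56 to 3.26). S100a6, a small calcium-binding protein, did not mark the members: it had 1419 CPM in them and 1273 CPM in the other inner medulla cells, a ratio of 1.12 (0.96 to 1.30). It stood at 1974 CPM in the 60 other cells with a Bst1 UMI.

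Markers of other cell types were low in members. Of 10 immune markers all 10 had 0 UMIs in members, and of 10 intercalated cell markers 8 had 0 UMIs, including Foxi1, Aqp6 and Slc26a4. The intercalated list summed to 18.1 CPM in members and 1149 CPM in the other inner medulla cells. Proximal tubule markers summed to 334 CPM in members, mostly Kap, and 19547 CPM in the other inner medulla cells. Thin limb markers summed to 7597 CPM in members and 11347 CPM in the other inner medulla cells, and in members 1526 UMIs of that sum were Cryab. The list also holds Slc14a2, a gene of members, and 6 of its 10 markers, among them Sptssb and, by the rule, Bst1, had no UMI in members. Read from the proximal tubule markers and barcodes with under 100 genes, free RNA made up about 2.50% of the members' UMIs.

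Members were then set beside the other inner medulla cells, as a description, since Aqp2 chose the cells and every gene of this contrast follows that choice. A gene counted as higher or lower if its ratio reached 1 on the log2 scale (CPM plus 10), provided that the higher sum held 100 CPM and 20 UMIs or more. By this size rule 248 genes were higher (3.15% of 7881 genes measured) and 338 were lower (4.29%), with a median log2 ratio of 0.02 over all measured genes.

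Fxyd4, a regulator of the Na,K-ATPase, was after Aqp2 level with the ribosomal RNA precursor Rn45s as the most abundant transcript of members. It had 0 to 63 UMIs per member with a median of 4, and 0 to 19 UMIs per other inner medulla cell with a median of 0. The sums gave 9133 CPM in members and 1343 CPM in the other inner medulla cells, 6.80-fold higher (6.11 to 7.59). Aqp3 had 2219 CPM in members and 367 CPM in the other inner medulla cells, 6.04-fold higher (4.90 to 7.50). Per cell, Aqp3 reached 14 UMIs in members and 9 UMIs in the other inner medulla cells, so the ranges overlapped for both genes.

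The vasopressin receptor Avpr2 had 737 CPM in members and 134 CPM in the other inner medulla cells, 5.51-fold higher (3.88 to 8.0). Aqp4, the second basolateral water channel, was 4.89-fold higher (4.23 to 5.67). Ptger1, a receptor for prostaglandin E2, had 818 CPM in members and 107 CPM in the other inner medulla cells, and Ptges, which makes prostaglandin E2, was 2.91-fold higher (1.97 to 4.38). The list of prostaglandin, endothelin and nitric oxide genes was not higher as a group. It held 2 higher and 1 lower of 10 measured, with a median log2 ratio of -0.32. Of 14 measured genes of the water and vasopressin list besides Aqp2, 3 were higher and 1, the thin limb and proximal tubule channel Aqp1, was lower. The list's other genes, which carry the receptor signal or move vesicles, stayed within the size rule: Gnas, the stimulatory G protein, had 1613 CPM in members and 1416 CPM in the other inner medulla cells.

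Less familiar genes stood beside these. Nipal1, a magnesium transporter, had 240 CPM in members and 23.4 CPM in the other inner medulla cells, a ratio of 10.2 (4.64 to 26.7). Gprc5b, an orphan G protein-coupled receptor, had 36 UMIs in members and 4 in the other inner medulla cells. Nexn, an actin-binding protein, had 24 UMIs in members and 2 in the other inner medulla cells. Spink8, a protease inhibitor, was 6.24-fold higher (4.40 to 9.07), and the heparan sulfate sulfotransferase Hs3st3b1 6.76-fold (2.96 to 18.0).

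**Figure D1:**
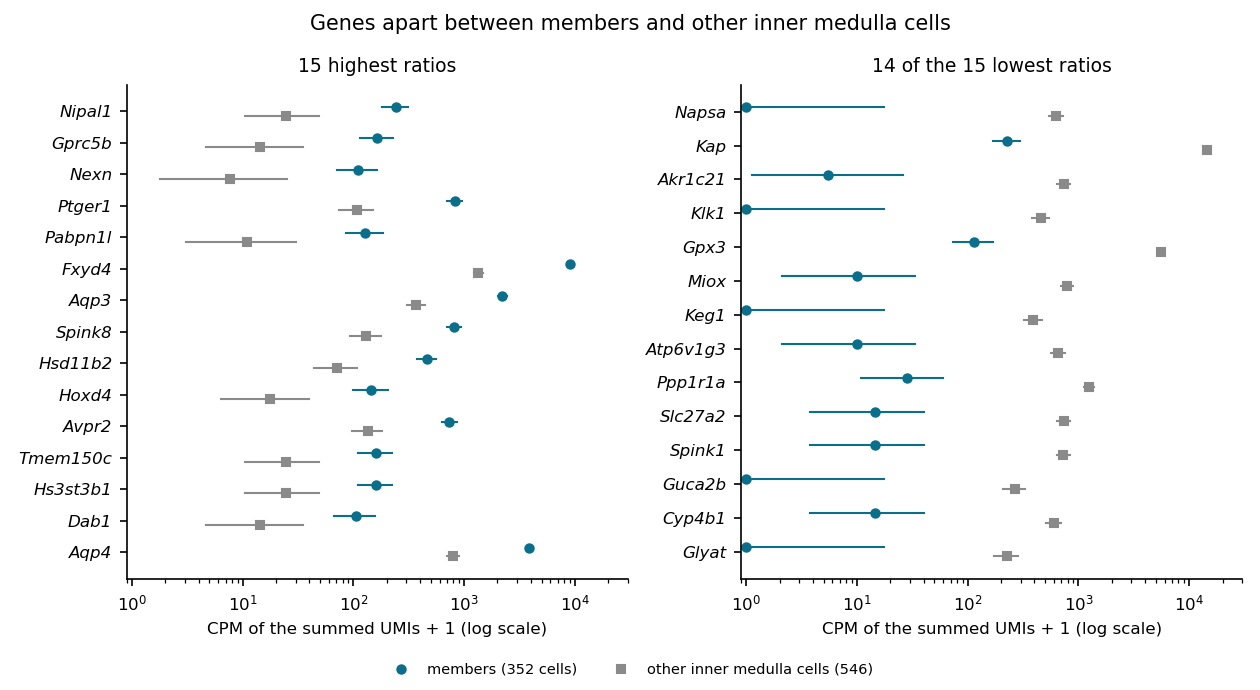
Level of the 15 genes with the highest (left) and 14 of the 15 with the lowest ratios, as CPM of summed UMIs plus 1 on a log axis, in 352 members (circles) and 546 other inner medulla cells (squares). Lines are exact 95% Poisson intervals. Fxyd4 and Aqp4 lie highest among the genes of the left panel, and Napsa, Klk1, Keg1, Guca2b and Glyat have 0 UMIs in members.

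The plot of named genes also shows the low end. Kap, an androgen-regulated protein of the proximal tubule, had 226 CPM in members and 14573 CPM in the other inner medulla cells, 64.5-fold lower. Gpx3, the secreted glutathione peroxidase, was 49.6-fold lower, on 25 UMIs in members. Atp6v1g3, a proton pump subunit of intercalated cells, was 72.8-fold lower (19.9 to 605) on 2 UMIs in members. Napsa, an aspartic protease, had 0 UMIs in members and 189 in the other inner medulla cells, at least 46.6-fold lower against a floor of 3 UMIs in the sum.

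Of 20 measured transcription factors of the collecting duct list, 8 were higher in members and 0 lower, with a median log2 ratio of 0.76. Foxq1 had 438 CPM in members and 124 CPM in the other inner medulla cells, 3.55-fold higher (2.41 to 5.33). The ETS factor Elf5 was 3.26-fold higher (2.34 to 4.62), and Tbx3, Emx2, Gata3, Elf3, Mecom and Pax8 between 2.28-fold and 3.07-fold. Tfcp2l1, which is known in both collecting duct cell types, had 63.3 CPM in members and 117 CPM in the other inner medulla cells, and reached 1077 CPM in cells with at least 2 UMIs of Atp6v1g3, Atp6v0d2 or Aqp6.

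Sodium and potassium transport was mixed. Of 15 measured genes, 2 were higher, Fxyd4 and Hsd11b2, and 4 were lower, with a median log2 ratio of 0.22. The median turned to -0.031 with the Aqp2 threshold at 1% and to -0.032 with the mean of per-cell CPM. Fxyd2, the gamma subunit of the Na,K-ATPase, had 1311 CPM in members and 9697 CPM in the other inner medulla cells, and its level in cells with at least 2 UMIs of Umod or Slc12a1 was 25135 CPM. The potassium channel Kcnj1 was 14.2-fold lower. Epithelial sodium channel transcripts were scarce: Scnn1g had 10 UMIs in all members and 0 in the other inner medulla cells, and Scnn1b had 6 in members and 1 in the other inner medulla cells.

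Genes of urea handling and osmoprotection were not higher as a group. Of 15 measured, 1 was higher, 3 were lower, and the median log2 ratio was -0.63. Sgk1, a kinase of osmotic and hormonal stress, was the higher one, with 764 CPM in members and 291 CPM in the other inner medulla cells. Slc14a2 missed the size rule narrowly, with 393 CPM in members and 194 CPM in the other inner medulla cells, a ratio of 2.03 (1.44 to 2.88). Its level in the comparison cells was uneven, with 864 CPM in the 39 cells just under the Aqp2 threshold and 39.2 CPM in the 374 cells without an Aqp2 UMI. The osmolyte genes Sord, Slc5a3 and Slc6a6 were lower, with Slc5a3, the myo-inositol transporter, at 94.9 CPM in members and 636 CPM in cells with Umod or Slc12a1. Cryab, a small heat shock protein, was abundant throughout, with 6896 CPM in members, 9069 CPM in the other inner medulla cells and 17370 CPM in cells with a Bst1 UMI.

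The retinoid and steroid enzymes held 3 higher genes and 1 lower one among 10 measured. Aldh1a3, which makes retinoic acid, had 728 CPM in members and 157 CPM in the other inner medulla cells, 4.63-fold higher (3.33 to 6.56), and the retinoic acid carrier Crabp2 was 6.54-fold higher (2.67 to 19.3). The glucocorticoid receptor Nr3c1 was 7.10-fold lower, on 5 UMIs in members. Secreted factors leaned lower as a list, with 2 higher and 3 lower of 11 measured and a median log2 ratio of -0.66. Among them Wnt9b was 4.06-fold higher (2.62 to 6.47) and Wnt4 2.92-fold (2.15 to 3.99). In the epithelial junction list, 4 of 19 genes were higher, among them Plet1, Muc1 and Cdh16, and 1 was lower, the thick ascending limb claudin Cldn10.

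Oxidative phosphorylation, by which mitochondrial complexes make ATP, gave the most lower genes of the lists tried. All 30 nuclear genes measured were lower in value in members, and 17 of them passed the size rule, with a median log2 ratio of -1.05. Cox4i1, a subunit of cytochrome c oxidase, had 1347 CPM in members and 2946 CPM in the other inner medulla cells. Atp5b, of the ATP synthase, had 691 CPM in members and 1961 CPM in the other inner medulla cells.

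**Figure D2:**
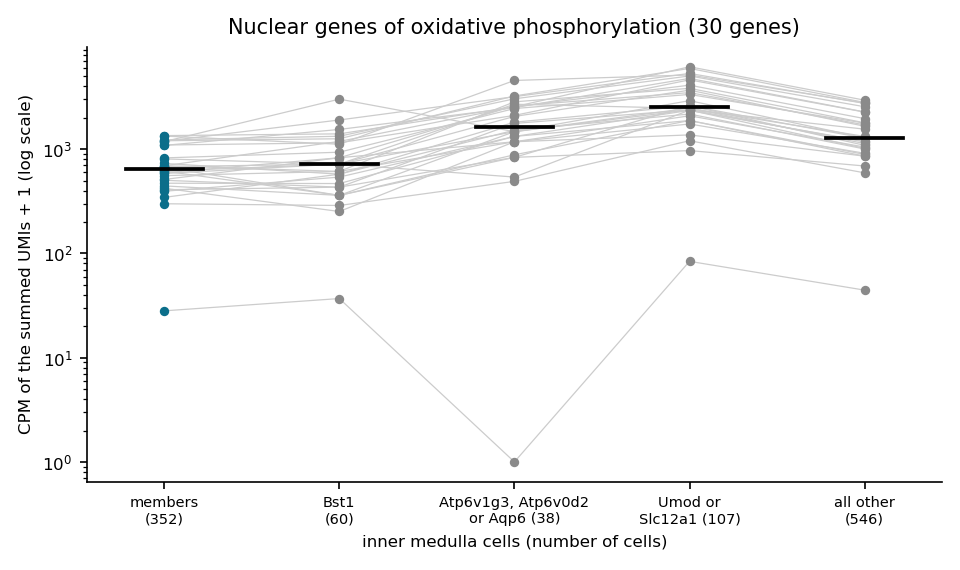
Level of 30 nuclear genes of oxidative phosphorylation, as CPM of summed UMIs plus 1 on a log axis, in members and in 4 sets of other inner medulla cells named by the genes that chose them, which can overlap. Points are genes, grey lines join a gene across sets, and black bars are medians: members lie near the Bst1 cells and below the cells with Umod or Slc12a1.

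The difference depended on which cells stood beside the members. The median over the 30 genes was 642 CPM in members, 718 CPM in cells with a Bst1 UMI, 1640 CPM in cells with Atp6v1g3, Atp6v0d2 or Aqp6, and 2536 CPM in cells with Umod or Slc12a1. All 30 genes were lower in members than in the Umod or Slc12a1 cells, but only 19 were lower than in the Bst1 cells. Glycolytic genes differed less, with 0 higher and 2 lower, Ldhb among them, of 16 measured.

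The same rule was applied within the other libraries, each against that library's own remaining cells. Outer medulla held 117 such cells of 2428, cortex 26 of 3072, and the whole kidney libraries 30 of 2418 and 24 of 3305. In cortex 1 of the 26 cells held 8780 of their 21877 UMIs, so that cell weighs heavily in every cortex level. Of the 15 named higher genes, 14 were higher in value in outer medulla, with Pabpn1l the exception, and 13 of 15 in whole kidney 2. In cortex and in whole kidney 1, 11 of the 14 listed were higher in value, and Nexn was among the exceptions in both. In these small sums 1 UMI was 45.7 CPM in cortex, 68.4 CPM in whole kidney 1 and 87.5 CPM in whole kidney 2. A scarce gene could thus be higher in value on 1 UMI, as Nipal1, Nexn and Ptger1 were in whole kidney 2. Hs3st3b1 in cortex and Nipal1 in whole kidney 1 had 0 UMIs on both sides. The share over all genes was not computed, so these counts only describe the named genes. Of the 15 lower genes, all 15 were lower in value in outer medulla and both whole kidney libraries, and 14 in cortex. Atp6v1g3 was that exception, with 914 CPM in the 26 cortex cells and 236 CPM in the other cortex cells.

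Variation among members was measured as the variance of a gene over cells divided by the variance that counting alone gives at these depths. Of 905 genes with at least 50 UMIs in members, 87 reached a ratio of 1.5 (9.61%), and the median was 1.22. At a like relative spread between cells the ratio is larger for a more abundant gene, so it does not rank genes of unlike level. The highest ratios were those of the nuclear RNA Malat1 at 5.49, Fxyd4 at 4.84 and Cryab at 3.77. Hsd11b2 followed at 2.85 on 101 UMIs, 15 of which came from a single cell. Car2, a carbonic anhydrase, stood at 2.48, Aqp3 at 2.13 and S100a6 at 1.96, while Plet1 had 1.94. Of 7 sodium and potassium transport genes 4 reached 1.5, and of 29 genes of oxidative phosphorylation 2 did. Rn45s stood at 3.0. Malat1 and Rn45s are nuclear or ribosomal transcripts. Malat1 had 8113 CPM in members with Aqp4 or Slc14a2 alone and 6698 CPM in members with Aqp3 or Hsd11b2 alone, the split described below, and the part of either transcript in the spread of other genes was not tested.

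**Figure D3:**
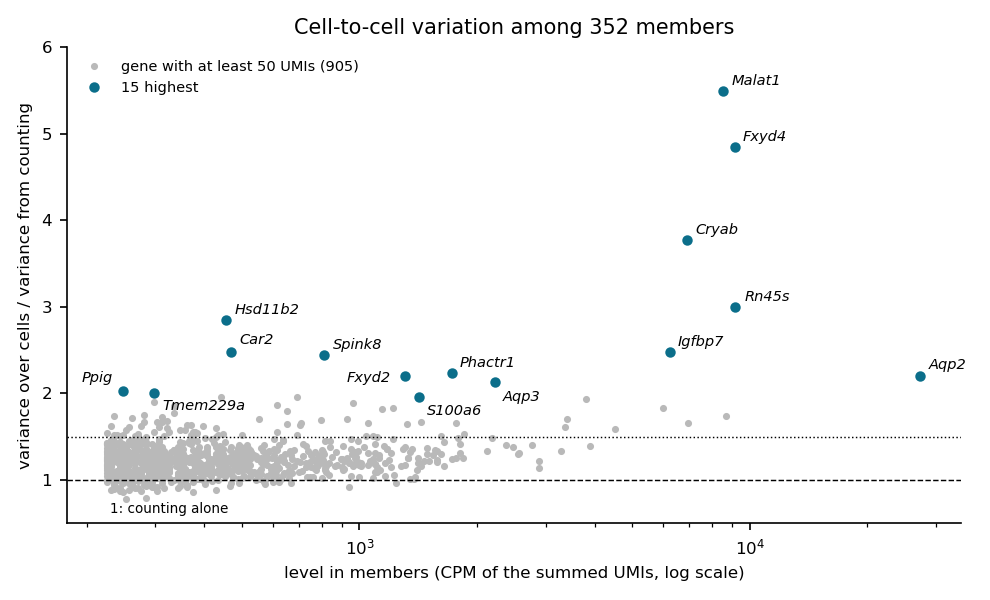
Cell-to-cell variation of 905 genes in 352 members: variance over cells divided by the variance from counting (y axis) against the level in CPM (x axis, log scale). The dashed line marks a ratio of 1 and the dotted line 1.5; Malat1, Fxyd4 and Cryab lie far above genes of like level.

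Of the 4 genes named for their variation, Hsd11b2 at 2.85 and Aqp3 at 2.13 passed a variance ratio of 1.5. Aqp4 at 1.39 and Slc14a2 at 1.29 did not, beside a median of 1.22 over 905 genes. With the level taken into account, the order differed. The excess of the ratio over 1, divided by the mean UMIs per member, was 6.43 for Hsd11b2 and 1.18 for Slc14a2. It was 0.81 for Aqp3, 0.67 for Fxyd4 and 0.16 for Aqp4. Among these 4 genes, Aqp4 was the most widespread. It was detected in 270 of 352 members, or 76.7% (71.9 to 81.0), with a median of 2 UMIs and up to 14. Aqp3 was detected in 58.5% (53.2 to 63.7) with up to 14 UMIs, Slc14a2 in 17.3% (13.5 to 21.7) with up to 5, and Hsd11b2 in 13.4% (9.98 to 17.4) with up to 15. In 44 of the 61 members with Slc14a2 a single UMI was seen, so a cell without one cannot be called negative at this depth.

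**Figure D4:**
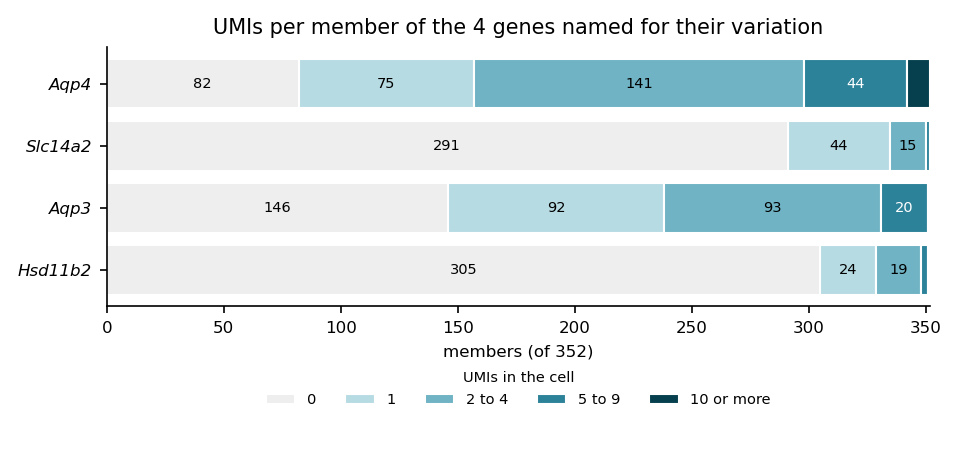
Number of members (x axis, of 352) by UMIs per cell of Aqp4, Slc14a2, Aqp3 and Hsd11b2, shaded from 0 to 10 or more UMIs. Slc14a2 has 0 UMIs in 291 members and Hsd11b2 in 305, whereas Aqp4 has at least 2 in most members.

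With every cell thinned to 300 UMIs, which left out 52 members, the shares were 64.3% for Aqp4, 41.3% for Aqp3, 11.7% for Slc14a2 and 9.33% for Hsd11b2. Cells with at least 2 UMIs of Umod or Slc12a1, which should lack these genes, gave 6.54% for Aqp4, 1.87% for Aqp3, 1.87% for Slc14a2 and 0.935% for Hsd11b2 before thinning. Their median depth was 352 UMIs, against 512 in members. All 4 shares in members lay above these, and above those in barcodes with under 100 genes, which had a median of 75 UMIs and gave 5.26% for Aqp4.

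The 4 genes were then compared in pairs, as a description. In the 300 thinned members, Slc14a2 and Aqp3 met in 6 cells, against 14.5 from the product of their shares. Slc14a2 and Hsd11b2 met in 1 cell, against 3.27. Aqp3 and Hsd11b2 met in 18, against 11.6. Aqp4 met Slc14a2 in 23 cells, against 22.5, Aqp3 in 75, against 79.8, and Hsd11b2 in 15, against 18.0.

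Members were first split by Aqp4 or Slc14a2 on one side and Aqp3 or Hsd11b2 on the other. The first 2 genes alone were found in 116 members (67546 UMIs, median 505 per cell). The last 2 alone were found in 54 (23887 UMIs, median 390.5), both sides in 159 and neither in 23. In 33 of the 116 and 27 of the 54 the assignment rested on 1 UMI. Levels also moved with depth. Members at or above the median depth had 1910 CPM of Aqp3, 8365 of Fxyd4, 7156 of Cryab, 1502 of S100a6 and 3775 of Plet1. Members below it had 2975, 11013, 6262, 1215 and 3848 CPM. The part of depth in the differences of this split and the next was not tested. Over the genes not used by the split, 73 were higher in the Aqp4 or Slc14a2 members (0.989% of 7379 measured) and 10 were lower (0.136%). The minimum of 20 UMIs is harder to reach in the smaller sum, which limits the second count. In that sum 1 UMI was 41.9 CPM, enough for a gene to be measured, so scarce genes lower both shares.

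Car2 had 5 UMIs in the Aqp4 or Slc14a2 members and 26 in the Aqp3 or Hsd11b2 members, 14.7-fold lower (5.56 to 49.0). Fxyd4 had 5818 CPM in the Aqp4 or Slc14a2 members and 12559 CPM in the Aqp3 or Hsd11b2 members, 2.16-fold lower (1.85 to 2.51), and the secreted protein gene Wfdc2 was 2.47-fold lower (1.51 to 4.01). Folr1, a folate receptor, had 21 UMIs in the Aqp4 or Slc14a2 members and 0 in the others, at least 2.48-fold higher. The tight junction gene Cldn4 had 21 UMIs in the Aqp4 or Slc14a2 members and 1 in the Aqp3 or Hsd11b2 members, 7.43-fold higher (1.19 to 307). In the second split, described below, Cldn4 did not pass the size rule. It had 16 UMIs in the Slc14a2 members and 7 in the Hsd11b2 members, a ratio of 1.40 (0.55 to 4.04). S100a6, Plet1 and Cryab had 2102, 4589 and 9297 CPM in the Aqp4 or Slc14a2 members, against 1214, 2428 and 4103 CPM in the Aqp3 or Hsd11b2 members.

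Since Aqp4 was detected in most members, a second split was chosen after these values were seen. It set 58 members with Slc14a2 and without Hsd11b2 (47847 UMIs, median 689 per cell) beside 44 members with Hsd11b2 and without Slc14a2 (29395 UMIs, median 512). Only 3 members had both genes. Free RNA read 2.03% in the Slc14a2 members and 2.54% in the Hsd11b2 members. The nuclear RNA Malat1 moved with the split, with 10387 CPM in the Slc14a2 members and 4218 CPM in the Hsd11b2 members, and at 300 UMIs it was detected in 85.2% of Slc14a2 members and 63.4% of Hsd11b2 members. Its part in the differences below was not tested. By the size rule, 72 genes were higher in the Slc14a2 members (0.844% of 8527 measured) and 31 were lower (0.364%).

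Fxyd4 was detected in 44 of 58 Slc14a2 members, with a median of 2 UMIs and a highest value of 13, and in 43 of 44 Hsd11b2 members, with a median of 9 and a highest value of 63. Its level was 3908 CPM in the Slc14a2 members and 18507 CPM in the Hsd11b2 members, 4.74-fold lower (4.00 to 5.62). The ranges overlapped. Car2 was found in 2 of 58 Slc14a2 members, with 2 UMIs, and in 26 of 44 Hsd11b2 members, with 56 UMIs. Defb1, a defensin, had 1 UMI in the Slc14a2 members and 28 in the Hsd11b2 members. Aqp3 was 4.27-fold lower (3.09 to 5.97) in the Slc14a2 members, Wfdc2 5.37-fold (3.22 to 9.35) and the galectin Lgals3 5.43-fold (2.10 to 16.5).

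In the other direction, S100a6 was detected in 39 of 58 Slc14a2 members and 5 of 44 Hsd11b2 members. Its level was 2383 CPM in the Slc14a2 members and 272 CPM in the Hsd11b2 members, 8.75-fold higher (4.30 to 20.8). Cryab had a median of 7 UMIs in the Slc14a2 members and 1 in the Hsd11b2 members, and was 4.77-fold higher (3.64 to 6.35). Plet1 was 2.58-fold higher (1.91 to 3.56), and Gstm1, a glutathione transferase, 3.46-fold (2.47 to 4.95). Fut9, a fucosyltransferase, had 31 UMIs in the Slc14a2 members and 2 in the Hsd11b2 members, and the ETS factor Elf3 had 20 in the Slc14a2 members and 0 in the Hsd11b2 members.

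Of 12 measured urea and osmoprotection genes besides Slc14a2, 4 were higher in the Slc14a2 members and 0 lower: Cryab, Hspb1, Hsph1 and Sgk1. Their median log2 ratio was 1.21, or 0.73 with genes at 0 UMIs set to their bound, and that of all genes was 0.23, or 0.00. Hspb1, a small heat shock protein, was 5.22-fold higher (1.86 to 20.3), and Hsph1 2.11-fold with an interval that held 1 (0.88 to 5.79). Both FXYD regulators of the sodium pump parted: Fxyd2 was 6.14-fold higher (2.97 to 14.7), whereas Fxyd4 was lower. The epithelial sodium channel had 0 UMIs of Scnn1a, Scnn1b and Scnn1g in the Slc14a2 members, against 2, 4 and 6 in the Hsd11b2 members.

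Aqp2, Avpr2 and Aqp4 stayed within the size rule in this split. Aqp2 had 26271 CPM in the Slc14a2 members and 28304 CPM in the Hsd11b2 members, a ratio of 0.93 (0.85 to 1.01). Avpr2 had 857 CPM in the Slc14a2 members and 919 CPM in the Hsd11b2 members, a ratio of 0.93 (0.56 to 1.58). Aqp4 had 4410 CPM in the Slc14a2 members and 3266 CPM in the Hsd11b2 members, a ratio of 1.35 (1.06 to 1.74). It was detected in 54 of 58 Slc14a2 members and 27 of 44 Hsd11b2 members, and after thinning to 300 UMIs in 38 of 54 (70.4%, 56.4 to 82.0) Slc14a2 members and 18 of 41 (43.9%, 28.5 to 60.3) Hsd11b2 members.

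The cell with 15 Hsd11b2 UMIs was also the deepest member, with 2864 UMIs, and held 63 of the Fxyd4 UMIs. Without it Fxyd4 was 4.64-fold lower, Aqp3 4.25-fold lower and S100a6 7.90-fold higher in the Slc14a2 members. Thinned to 300 UMIs, S100a6 was detected in 30 of 54 Slc14a2 members and 3 of 41 Hsd11b2 members, and Fxyd4 in 33 of 54 Slc14a2 members and 39 of 41 Hsd11b2 members.

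**Figure D5:**
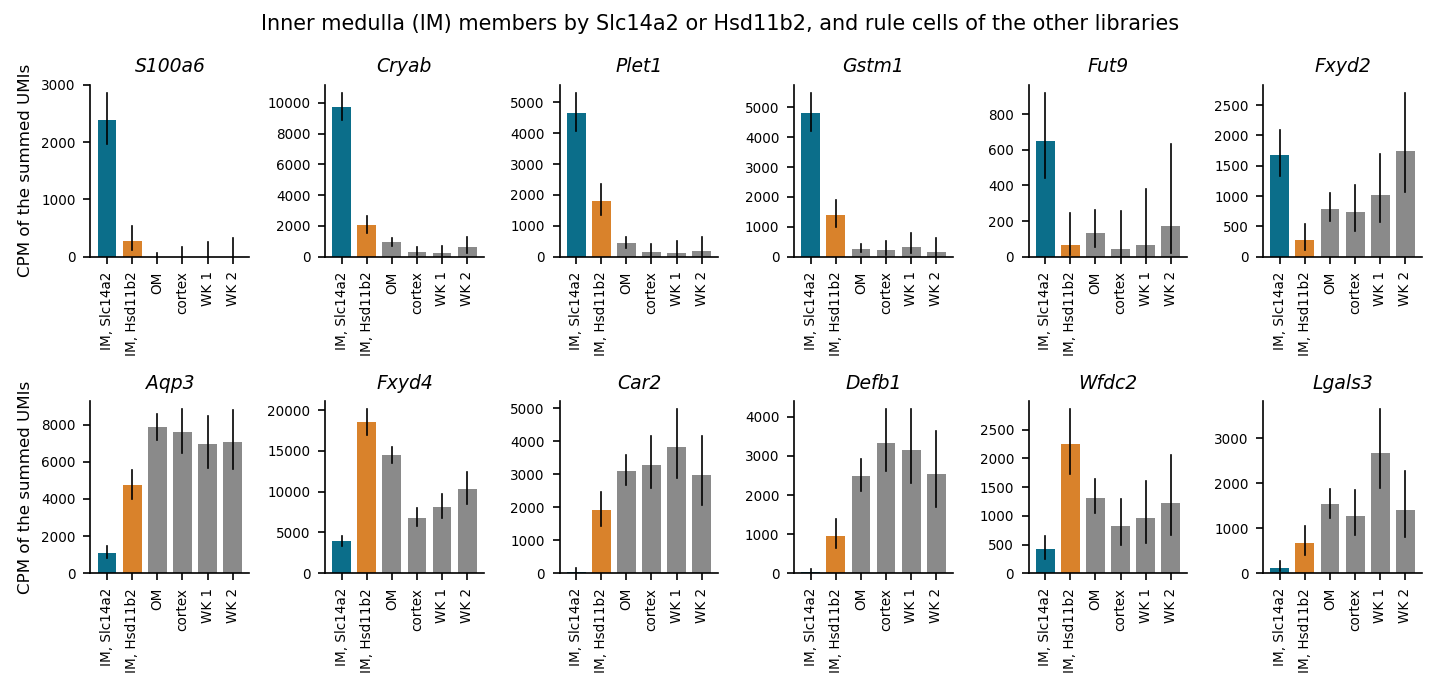
Level of 12 genes as CPM of summed UMIs, with exact 95% Poisson intervals as lines, in inner medulla (IM) members with Slc14a2 (blue) or Hsd11b2 (orange) and in cells that met the same rule in outer medulla (OM), cortex and whole kidney (WK, grey). S100a6 is at 0 outside the inner medulla, and Car2 and Defb1 are lowest in the Slc14a2 members.

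The plot of split levels sets these groups beside the cells that met the same rule in other libraries, where region and library cannot be told apart. The cortex levels here and below lean on 1 cell with 8780 of the 21877 UMIs, which the intervals do not cover. For Car2 the levels were 41.8 CPM in the Slc14a2 members, 1905 CPM in the Hsd11b2 members, 3097 CPM in outer medulla and 3291 CPM in cortex. For Cryab they were 9739 CPM in the Slc14a2 members, 2041 CPM in the Hsd11b2 members, 939 CPM in outer medulla and 320 CPM in cortex. For Plet1 they were 4661 CPM in the Slc14a2 members, 1803 CPM in the Hsd11b2 members, 445 CPM in outer medulla and 137 CPM in cortex. The Hsd11b2 members lay between the Slc14a2 members and the outer medulla cells for these 3 genes, but not for Fxyd4, which was 14512 CPM in outer medulla, or for Wfdc2.

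Across libraries, Slc14a2 had 393 CPM in members, with 87 UMIs, against 1 UMI in the outer medulla cells and 0 in those of cortex and both whole kidney libraries. Aqp4 had 3887 CPM (3631 to 4155) in members, 1400 CPM (1118 to 1731) in outer medulla, 547 CPM (236 to 1077) in whole kidney 1, 183 CPM (49.8 to 468) in cortex and 175 CPM (21.2 to 632) in whole kidney 2. The intervals of the last 3 overlapped each other. Hsd11b2 ran the other way, with 456 CPM (372 to 555) in members and 5690 to 7131 CPM in the other 4 libraries, whose intervals overlapped each other. Aqp3 had 2219 CPM (2027 to 2424) in members and 6972 to 7857 CPM in the other 4.

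Between members and the 117 outer medulla cells, 427 genes were higher in members (5.73% of 7457 measured) and 100 were lower (1.34%). The members' sum was the larger one, with 221277 UMIs against 60710, so genes scarce in outer medulla passed the count minimum more easily than the reverse. Free RNA read 2.50% in members and 13.1% in the outer medulla cells. Malat1 had 8541 CPM in members and 4810 CPM in the outer medulla cells, and its part in the comparison was not tested. The free RNA share moved with the comparison, and proximal tubule transcripts such as Kap, Miox, Gpx3 and Spink1 were among the 15 lowest ratios. With free RNA subtracted, Gpx3 changed sign, to a log2 ratio of 1.76.

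S100a6 had the highest ratio, with 314 UMIs in 144 members and 0 UMIs in all 117 outer medulla cells, at least 28.7-fold higher. A count of 0 in 117 cells allows a share of up to 3.10% with a UMI by the exact interval. Phactr1, an actin and phosphatase regulator, had 1722 CPM in members and 49.4 CPM in the outer medulla cells, a ratio of 34.8 (11.8 to 170). Wnt4 had 138 UMIs in members and 1 in the outer medulla cells, and Rnf183, a ubiquitin ligase, had 115 in members and 1 in the outer medulla cells. Nupr1 and Ddit3, transcriptional regulators of stress, had 69 and 61 UMIs in members and 0 in the outer medulla cells.

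Of 13 measured urea and osmoprotection genes, 6 were higher in members and 0 lower, with a median log2 ratio of 1.99 beside 0.10 over all genes. Cryab was 7.35-fold higher (5.64 to 9.74), Sgk1 5.15-fold (2.65 to 11.5) and Hsph1 11.7-fold (3.13 to 97.8). The stress and unfolded protein list had 6 higher and 0 lower of 18, among them Hspa5, the chaperone of the endoplasmic reticulum, at 2.33-fold (1.39 to 4.20). Ptges, which makes prostaglandin E2, was 11.5-fold higher (3.09 to 96.7).

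Sodium and potassium transport leaned the other way, with 4 lower and 2 higher of 17 and a median log2 ratio of -0.67. Kcnj1, the secretory potassium channel, had 4 UMIs in members and 75 in the outer medulla cells, 68.3-fold lower (25.6 to 257). Hsd11b2 was 14.8-fold lower (11.8 to 18.5) and Scnn1g 9.11-fold lower on 10 UMIs in members. Car15, a carbonic anhydrase, had 0 UMIs in members and 54 in the outer medulla cells, at least 65.6-fold lower. Calb1 and S100g, calcium-binding proteins of the connecting tubule and distal segments, had 1 and 4 UMIs in members, against 28 and 22 in the outer medulla cells.

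Transcription factors split in this comparison, with 6 higher and 3 lower of 20. Tbx3 had 59 UMIs in members and 1 in the outer medulla cells, and Elf5, Elf3, Foxq1, Pax2 and Pax8 were also higher. Tfcp2l1 was 9.37-fold lower, Gata2 3.77-fold and Hoxd8 3.44-fold. Genes of oxidative phosphorylation were lower in value for 28 of 30, with 5 past the size rule and a median log2 ratio of -0.74.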

How the data were processed

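The 5 deposited tables hold UMI counts, whole numbers per gene symbol and barcode that carry no normalization. The submitters' processing notes name Seurat 2.3.1 and build mm9 without a role; the tables were used as the authors deposited them. For aligner and annotation, none is given in the sources used here. Members and gene lists were chosen with earlier results of these data known, and the split by Slc14a2 or Hsd11b2 after seeing the values.

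Counts were summed over cells of a group and divided by the group total, as CPM. Log2 ratios use CPM plus a pseudocount of 10 and understate the change of low genes, while folds are plain ratios. A gene was measured with at least 20 CPM in either sum. Named genes were the 15 with the largest ratios each way past the size rule (10 for the first split, 12 for the second, and there and for outer medulla only where the interval left out 1), without ribosomal protein, haemoglobin and rule genes, the 15 most variable genes and measured members of the lists. Intervals are exact Poisson, exact conditional or Clopper-Pearson at 95%. A fold against 0 UMIs uses a floor of 3 UMIs in the sum. Thinning used 300 UMIs. Free RNA was read from proximal tubule markers against barcodes with under 100 genes. Some named genes are not reported here. The steps were tested on simulated data. Python 3.11.15, numpy 2.4.6, scipy 1.17.1, pandas 2.3.3 and matplotlib 3.10.9 were used.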

Additional observations from a re-analysis of the deposited data

How the results depend on the processing

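No paired analysis was possible because each region has 1 library and the replicate numbers of whole kidney pair with no other group. Of the values that answer a comparison, 200 kept to their margin and 63 moved beyond it, a margin of 1.5 times for counts of genes or cells and of the counting spread for list medians and shares. Of the values of single genes, 121 moved and 3 reversed. With 1 library per region no replicate was left out. The cause of the shifts below was not tested. At 231 to 2864 UMIs per member, a cell with 0 UMIs of a gene cannot be called negative for it, which limits every share and both splits.

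With Aqp2 at 3% or more of UMIs there were 124 members, against 352, with 500 genes 111. In the other libraries, the rule at 1% found 44 cells in cortex and 37 in whole kidney 2. At 3% cortex had 2, outer medulla 55, whole kidney 1 had 8 and whole kidney 2 had 10. With 500 genes the same libraries had 8, 22, 5 and 3.

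Genes higher in members than in the other inner medulla cells numbered 54 at Aqp2 of 3%, 128 with a pseudocount of 50 and 728 with no minimum of UMIs and 20 CPM, which gave 1165 lower. List medians moved as follows (log2). Sodium and potassium transport was -0.031 with Aqp2 at 1% and -0.032 with the mean of per-cell CPM. Transcription factors were 1.02 at 1%, 0.28 at 3%, 1.06 with 500 genes and 1.01 against cells without Aqp2. Urea and osmoprotection was -0.94 at 3%, -0.29 with 500 genes and -0.31 against cells without Aqp2. Oxidative phosphorylation was -0.71 at 3%, -1.32 with 500 genes, -0.82 without the 5% of cells with the most UMIs and -0.80 by per-cell means. Water transport moved from 0.17 to 1.01 with 500 genes, and junctions from 0.34 to 0.57 against cells without Aqp2.

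Between the Aqp4 or Slc14a2 and the Aqp3 or Hsd11b2 members, genes lower numbered 1 with 500 genes and 3 with TMM (trimmed mean of M-values) scaling, which gave 142 higher. With 500 genes the urea and osmoprotection median moved from 0.65 to 2.38, and Gsta3 reversed from -1.54 to 0.38. Between Slc14a2 and Hsd11b2 members, genes higher numbered 27 with the split made after thinning, 43 with 500 genes and 43 without the deepest 5%. Genes lower numbered 19 after thinning and 11 with 500 genes. Sodium and potassium transport moved from -0.12 to -1.09 after thinning and to -0.89 without the deepest 5%. Aldh1a3 reversed from 1.35 to -0.88 after thinning.

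Between members and outer medulla cells, genes higher numbered 161 at 3%, and genes lower 51 at 3% and 40 with 500 genes. Oxidative phosphorylation was -0.48 at 3%, -0.57 with TMM and -0.57 net of free RNA. The stress list moved from 0.92 to 0.38 at 3%, sodium and potassium transport was -1.14 with 500 genes, and Gpx3 reversed to 1.76 net of free RNA. The second split with its settings was chosen after seeing the data. So were TMM and free RNA for the outer medulla comparison, and free RNA for the first split.

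The share of members with an Aqp4 UMI was 76.7% unthinned, 50.6% at 200 UMIs and 80.0% at 500. For Slc14a2 it was 17.3%, 6.25% and 18.3%, and 8.11% with 500 genes, thinned to 300 UMIs as are the next such values. For Aqp3 it was 58.5%, 33.0% and 52.2%, and 49.0% at Aqp2 of 3%. For Hsd11b2 it was 13.4% unthinned and 4.50% with 500 genes.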

Other observations

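Glutathione transferases and metallothioneins parted between members and the other inner medulla cells. Of 19 measured antioxidant and metal genes, 3 were higher in members and 6 lower. Gstm2 had 2888 CPM in members and 862 CPM in the other inner medulla cells, 3.35-fold higher (2.90 to 3.89), and Gstm1 and Gsta3 were also higher. Mt1, a metallothionein, had 402 CPM in members, 1546 CPM in the other inner medulla cells and 4878 CPM in cells with Umod or Slc12a1. In the keratin, S100 and annexin list 3 of 20 measured genes were higher in members and 0 lower. Tmsb4x, an actin-binding peptide, had 8672 CPM in members and 3006 CPM in the other inner medulla cells, and the keratins Krt7 and Krt18 were 2.09-fold (1.51 to 2.91) and 2.24-fold (1.69 to 2.99) higher.

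Of 10 measured immediate early genes, which respond within minutes to stimuli or handling, 0 were higher and 0 lower in members. Between the Slc14a2 and the Hsd11b2 members, all 9 measured were lower in value in the Slc14a2 members and 0 passed the size rule. Their median log2 ratio was -1.02, or -0.11 with genes at 0 UMIs set to their bound. Of all 8527 measured genes, 3995 were lower in value. Several of the 9 rested on few UMIs: Egr1 and Nr4a1 had 0 in the Slc14a2 members and 1 in the Hsd11b2 members, and Jun 0 and 2. Ier2 had 3 and 3 and Junb 3 and 2, lower in value only because the Hsd11b2 sum is smaller.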
